A study of Mus musculus with 2 samples.

Results

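The genes described here are 6 genes of lymphocyte exit from tissue: Cd69, the sphingosine-1-phosphate (S1P) receptor genes S1pr1, S1pr4 and S1pr5, and the Kruppel-like factor genes Klf2 and Klf3. They were taken by gene symbol from the platform annotation, and each of the 6 had 1 probe set, out of 19505 genes in the table. Their signals were compared between Tc1 and Tc9 cells, mouse CD8 T cells cultured so that they would make interferon gamma or interleukin 9. The series was made to find genes with higher expression in Tc9 than in Tc1 cells.

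Both groups started from CD8 T cells of spleen and lymph node that were primed with plate-bound antibody to CD3 and soluble antibody to CD28. The Tc1 group was polarized for 3 days with 10 ng/mL recombinant human IL-2. The Tc9 group was polarized for 3 days with TGF-beta at 1 ng/mL, IL-4 at 10 ng/mL and the interferon gamma antibody XMG1.2 at 20 µg/mL. Both then spent 2 days in T cell medium with 10 ng/mL IL-2, and RNA was taken at day 5. The labels used here give no strain, age or number of mice, and do not say whether animals were pooled. There was 1 array per group, so no difference below has a replicate check, p-value or standard error, and each describes this pair of arrays. The source name of the second sample reads Tc1, while its title and description read Tc9, and the title was followed.

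Lymph and blood hold more S1P than the tissue fluid of lymphoid organs, and T cells that carry S1PR1 on their surface follow this gradient out. KLF2 is a transcription factor that switches on S1pr1 in resting T cells and is itself kept on by FOXO1, and activation through the antigen receptor turns it down. CD69 is a C-type lectin that appears soon after activation, binds S1PR1 in the membrane and carries it inside the cell, so that activated T cells stay where they are. Low S1pr1 and Klf2 together with surface CD69 are a known feature of CD8 T cells that reside in tissue. The arrays measured RNA, and surface protein was not measured.

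Signals are log2 values of the deposited intensities, and a gene counts as detectable if at least 1 of its 2 signals was 6.43 or more. This threshold is the median over all genes and both arrays (86.3 on the linear scale). By this rule 10147 genes were detectable. All 7 measured T cell markers reached the threshold on both arrays, and Cd8a had 12.19 in Tc1 and 11.93 in Tc9 cells. Ifng stood at 9.28 and 7.57, and Il9 at 4.82, below the threshold, and 8.45. Signals of other cells were present, since 8 of 9 measured B cell markers were detectable, and all 9 had lower signals on the Tc9 array, except that Ebf1, at -0.0073, turned upward when the arrays were centred on their medians. Of all detectable genes 43.7% had lower signals on the Tc9 array, and 35.7% after that centring. The summed B cell marker signal was 12.15 in Tc1 and 11.64 in Tc9 cells, in log2 units. Cd4 was detectable too, at 9.33 and 8.74. Of 7 measured monocyte and macrophage markers 4 were detectable, with Lyz2 at 8.36 and 8.79 and Fcgr3 at 8.41 and 7.54, and their summed signal was 10.03 and 9.93. Of the dendritic cell, neutrophil, platelet and erythroid markers, 1 of 6, 1 of 5, 3 of 5 and 1 of 3 measured genes were detectable. All 4 measured NK cell markers and all but 1 of 7 endothelial markers lay below the threshold on both arrays. The exception was Pecam1, which leukocytes also express.

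Of the 6 genes, 5 were detectable. Cd69 was at least 2-fold lower on the Tc9 array, S1pr1 was at least 2-fold higher, and the 3 other detectable genes, S1pr4, Klf2 and Klf3, stayed within 2-fold. Among all detectable genes 2.79% lay past 2-fold on the lower side and 2.62% on the higher side. The median difference, Tc9 minus Tc1, was -0.044 over the 6 genes. It turned to 0.025 after median centring and 0.057 with 50 added. With values below the threshold set to it, which alters only S1pr5 among the 6, it was 0.17. Over the 5 detectable genes the median was 0.34, against 0.046 over all detectable genes.

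**Figure D1:**
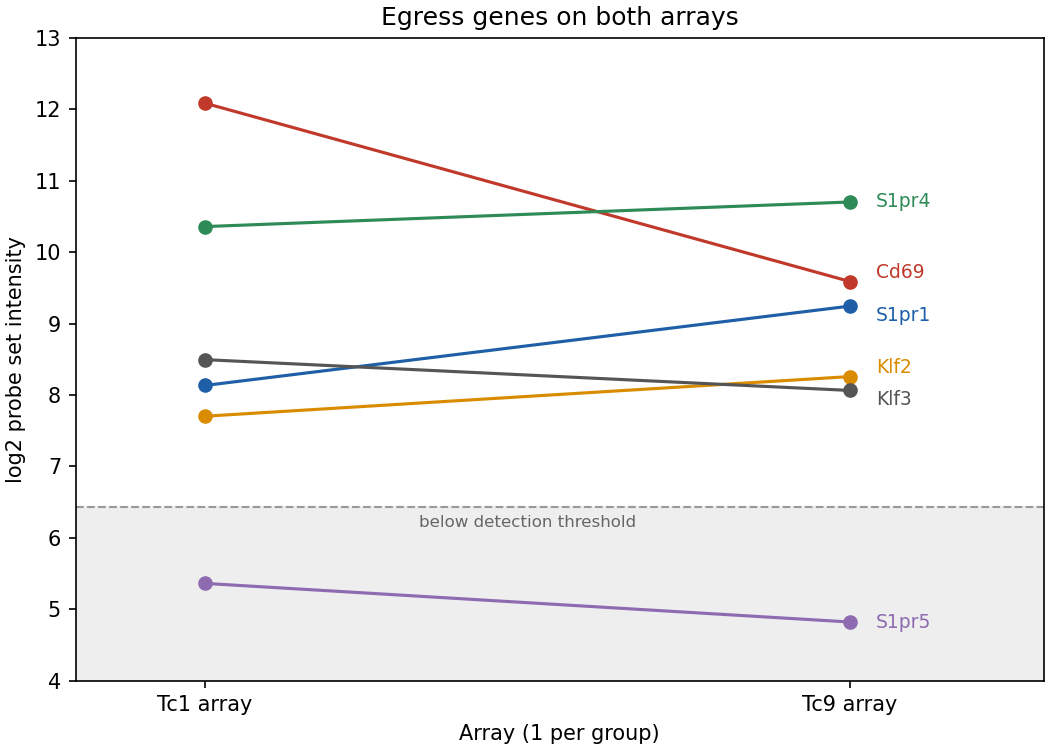
The plot shows the log2 probe set intensity of each of the 6 genes on the Tc1 and the Tc9 array, 1 array per group, with a line joining the values of a gene and the area below the detection threshold of 6.43 shaded. The Cd69 line falls from 12.09 to 9.59, the S1pr1 line climbs from 8.13 to 9.24, and both S1pr5 values lie in the shaded area; heights of different genes are not comparable, since their probes differ.

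Cd69 had an intensity of 4345 in Tc1 and 769.6 in Tc9 cells, which are log2 signals of 12.09 and 9.59. It was therefore bright on both arrays, and the Tc9 signal was 5.65-fold lower. In a mixed population, fewer cells that express a gene and less RNA per cell cannot be told apart. Among the 9358 genes detectable on both arrays, Cd69 had the 19th most negative difference. Large differences were uncommon at this brightness: of 1074 genes whose mean signal lay within 0.5 log2 units of its own, 1.58% were at least 2-fold lower. B cells, CD4 T cells and monocytes can also express CD69, and the part of their signals in the Cd69 difference was not tested.

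S1pr1 had an intensity of 281 in Tc1 and 607 in Tc9 cells, log2 signals of 8.13 and 9.24. It was the brighter on the Tc9 array, by 2.16-fold, and stood at place 117 from the top among the 9358 genes detectable on both arrays. Of 2287 genes with a mean signal within 0.5 log2 units of its own, 2.40% were at least 2-fold higher. The S1pr1 difference lies close to the 2-fold limit, and it was 1.99-fold when 50 was added to each intensity before the logarithm. B cells express S1pr1 too, and the part of their signal in the S1pr1 difference was not tested. The ratio of the S1pr1 signal to the Cd69 signal within an array was 12.2-fold higher on the Tc9 array, a value that a constant factor per array leaves as it is. It was 11.9-fold under quantile normalization and 10.6-fold with 50 added.

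S1pr4, a receptor that lymphocytes carry and that couples to Gi and G12/13 proteins, had intensities of 1312 and 1665. These are log2 signals of 10.36 and 10.70, a 1.27-fold higher value on the Tc9 array, well inside the 2-fold limit. S1pr5, the receptor that guides NK cells and some effector CD8 T cells out of tissue and that T-bet helps to induce, had intensities of 41.2 and 28.3. Both S1pr5 values, 5.36 and 4.82 on the log2 scale, were below the threshold, so no fold is given. Tbx21, which encodes T-bet, was 8.30-fold lower on the Tc9 array, at 9.56 and 6.50. Its Tc9 value was just above the threshold and below 7.16, the 95th percentile of the negative controls, so the size of the fold is uncertain. The related gene Eomes was 2.09-fold lower, which fell inside 2-fold after median centring. Whether either gene bears on S1pr5 in these cells was not tested.

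Klf2 had intensities of 208 and 306, log2 signals of 7.70 and 8.26, and was 1.47-fold higher on the Tc9 array. It lay on the same side as S1pr1, its target, but did not reach 2-fold. The difference of S1pr1 exceeded that of Klf2 by 0.56 on the log2 scale. Klf3, a repressor that binds the same kind of DNA site and recruits CtBP corepressors, had intensities of 361 and 268, log2 signals of 8.50 and 8.06. It was 1.35-fold lower on the Tc9 array, so the ratio of Klf2 to Klf3 within an array was 1.98-fold higher there. The corepressor genes Ctbp1 and Ctbp2 were both 1.24-fold higher.

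**Figure D2:**
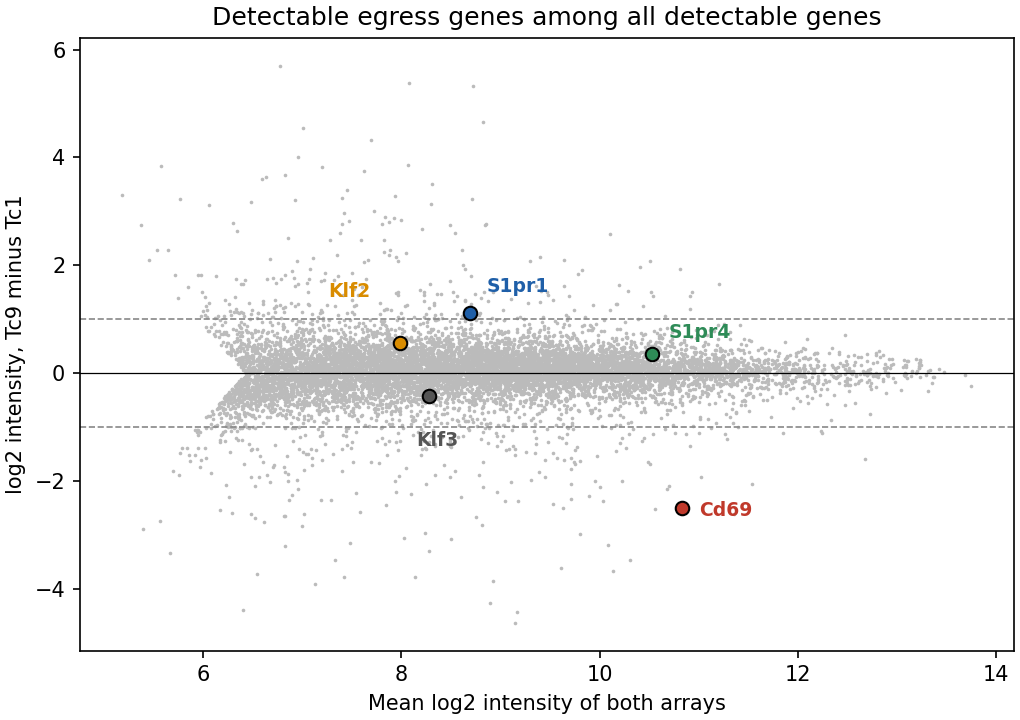
Each grey point is 1 of the 10147 detectable genes, with its mean log2 intensity over both arrays on the horizontal axis and its log2 difference, Tc9 minus Tc1, on the vertical axis; coloured points are the 5 detectable genes of the group and dashed lines mark 2-fold. Cd69, at -2.50, lies far below the lower line with few points of like brightness near it, S1pr1, at 1.11, lies just above the upper line, and S1pr4, Klf2 and Klf3 lie inside the bulk.

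The promoters of 3 detectable receptor and factor genes are shown because KLF proteins bind CACCC and related GC-rich letters, and Klf2 and Klf3 are members of that family. RefSeq sequence of build GRCm38.p6 was matched for 4 of the 6 genes by symbol, S1pr4, S1pr5, Klf2 and Klf3, and 3 are printed. No promoter sequence was at hand for Cd69 and S1pr1, the genes past 2-fold, so theirs were not searched. Each is the 250 bases before the annotated start, 5′ to 3′ on the strand of the gene. Klf2 is chr8:72318812-72319061 on the plus strand, Klf3 is chr5:64803271-64803520 on the plus strand and S1pr4 is chr10:81500138-81500387 on the minus strand. Capitals mark CACCC on either strand in all 3, and in Klf2 also the motif TAAATTTA, a site of the MEF2 factors that act below the kinase ERK5. The MEF2 letters were chosen after the Klf2 sequence had been seen.
Klf2: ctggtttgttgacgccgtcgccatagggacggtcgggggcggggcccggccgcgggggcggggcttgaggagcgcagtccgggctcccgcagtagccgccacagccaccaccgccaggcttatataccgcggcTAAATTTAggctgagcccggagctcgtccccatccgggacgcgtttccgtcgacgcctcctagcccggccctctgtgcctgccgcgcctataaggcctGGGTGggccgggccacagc
Klf3: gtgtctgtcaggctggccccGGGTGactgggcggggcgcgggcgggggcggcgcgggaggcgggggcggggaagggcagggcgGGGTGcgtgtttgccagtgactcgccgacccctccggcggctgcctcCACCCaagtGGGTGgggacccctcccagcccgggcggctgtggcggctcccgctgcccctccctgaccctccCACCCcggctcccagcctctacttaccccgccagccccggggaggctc
S1pr4: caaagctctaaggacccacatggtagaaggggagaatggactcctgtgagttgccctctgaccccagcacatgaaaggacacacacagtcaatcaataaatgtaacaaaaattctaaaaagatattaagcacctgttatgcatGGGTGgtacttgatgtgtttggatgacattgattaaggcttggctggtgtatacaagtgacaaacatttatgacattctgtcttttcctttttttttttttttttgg

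All 4 matched promoters held CACCC, with 5 matches in Klf3, 2 in S1pr5 and 1 each in Klf2 and S1pr4, while 52.0% of 32851 promoter windows of the same length held it. The wider KLF motif CCNCNCCC had 10 matches in Klf3, 4 in Klf2, 2 in S1pr5 and none in S1pr4, against 45.9% of windows with a match. Some of its matches overlap each other or a CACCC match, as at bases -111 to -104 of Klf3 counted from the start. The GC content was 78.4% in Klf3, 71.2% in Klf2, 69.2% in S1pr5 and 38.8% in S1pr4, against a median of 52.4% over all windows, so the GC-rich promoters have more room for such letters. The MEF2 motif occurred in Klf2 at bases -117 to -110 and in 165 of the 32851 windows. None of the 4 promoters held the letters GTAAACA (FOXO, 3.17% of windows), AGGTGTGA (T-box, 1.12%), TTCNNNGAA (STAT, 7.02%), TGANTCA (AP-1, 6.75%) or the interferon response element (2.98%). Both strands were searched. A match describes letters, not binding.

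Receptors for S1P and related lipids were read as a list that also holds S1pr1, S1pr4 and S1pr5. Of its 14 measured genes 9 were detectable, and 8 of these had higher signals on the Tc9 array, against 56.3% of all detectable genes. Of the 8, Lpar2 turned under quantile normalization. By measured values S1pr1, Gpr183 and Lpar3 passed 2-fold upward and none of the 9 passed it downward. Among all detectable genes 2.62% passed 2-fold upward and 2.79% downward. Lpar3 counted as detectable only through the Tc9 array, where it was higher. The median was 0.15 over the 14 genes and 0.59 over the 9 detectable ones. Gpr183, the oxysterol receptor EBI2 that positions lymphocytes inside lymphoid tissue, was 2.83-fold higher, at log2 signals of 8.72 and 10.21. Lpar3, a receptor for lysophosphatidic acid, was at least 1.37-fold higher, with its Tc1 value below the threshold and set to it. The lysophosphatidylserine receptors Gpr174 and P2ry10 were 1.59-fold and 1.51-fold higher, inside the limit. S1pr2, which couples to G12/13 and restrains migration, had 7.42 and 7.69, and Lpar2 and Lpar6 differed by 0.027 and -0.051, the latter turning under either scaling. S1pr3, Lpar1, Lpar4 and Gpr34, like S1pr5, lay below the threshold on both arrays. All of these dim genes had lower measured values on the Tc9 array, so that of the 14 genes 8 were higher and 6 lower. Leaving them out therefore raises the share of higher genes and the median.

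Genes that make, break down or move S1P differed little. None of the 13 detectable genes, of 20 measured, passed 2-fold, where 5.41% of all detectable genes passed it either way. The median was 0.11 over the detectable and -0.051 over all measured genes. The latter turned to 0.0081 and 0.017 under quantile normalization and median centring. Sgpl1, the lyase that ends S1P, was 1.20-fold higher, and Sphk2, an S1P-making kinase, 1.08-fold higher. The largest differences that could be measured on both arrays were in Plpp2, a lipid phosphate phosphatase, at 6.60 and 7.36, and in Mfsd2a, a lipid transporter, at 9.60 and 9.02. Plpp1, a second such phosphatase, was at least 1.19-fold lower. The S1P exporters Spns2 and Mfsd2b lay below the threshold on both arrays.

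Of 27 measured genes for signalling below S1P receptors and their desensitization, 26 were detectable. Of all detectable genes 2.62% passed 2-fold upward and 2.79% downward, and of these 26, 1 gene did so in each direction. Both are regulators of G protein signalling, which shorten Gi signals. Rgs10 was 2.61-fold higher on the Tc9 array, at 8.42 and 9.80. Rgs1, which holds T cells in tissue by dampening chemoattractant receptors, was 2.17-fold lower, at 11.57 and 10.45. Arrb1, which encodes beta-arrestin 1, was 1.87-fold higher. The Gi subunits Gnai2 and Gnai3 and the migration genes Dock2, Rac1, Rac2 and Rhoa differed by 1.09-fold or less. The median of the list was 0.071 over all measured and 0.072 over the detectable genes.

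Genes of the KLF family, Klf2 and Klf3 included, differed in both directions. All 17 genes were measured, 10 were detectable, 5 of these were higher and 5 lower on the Tc9 array, with 4 and 6 under quantile normalization, where Klf11 turned. Among all detectable genes 56.3% were higher, or 52.6% under quantile normalization, so the split is near that of all genes. The median was 0.021 over the 17 genes and -0.13 over the 10. Klf6, a factor of the early response to stimulation, was the only one past 2-fold, 2.16-fold lower, at 11.32 and 10.21. Of all detectable genes 2.79% passed 2-fold downward. Klf9 was 1.53-fold higher, Klf10, a gene that TGF-beta induces early, 1.40-fold and Klf13 1.25-fold higher, beside Klf2. Klf11 differed by 0.021 on the log2 scale. Klf7 and Klf16 were 1.29-fold and 1.22-fold lower, beside Klf3, and Klf8 was at least 1.23-fold lower, its Tc9 value being under the threshold. Klf1, Klf4, Klf5, Klf12, Klf14, Klf15 and Klf17 lay below the threshold on both arrays.

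**Figure D3:**
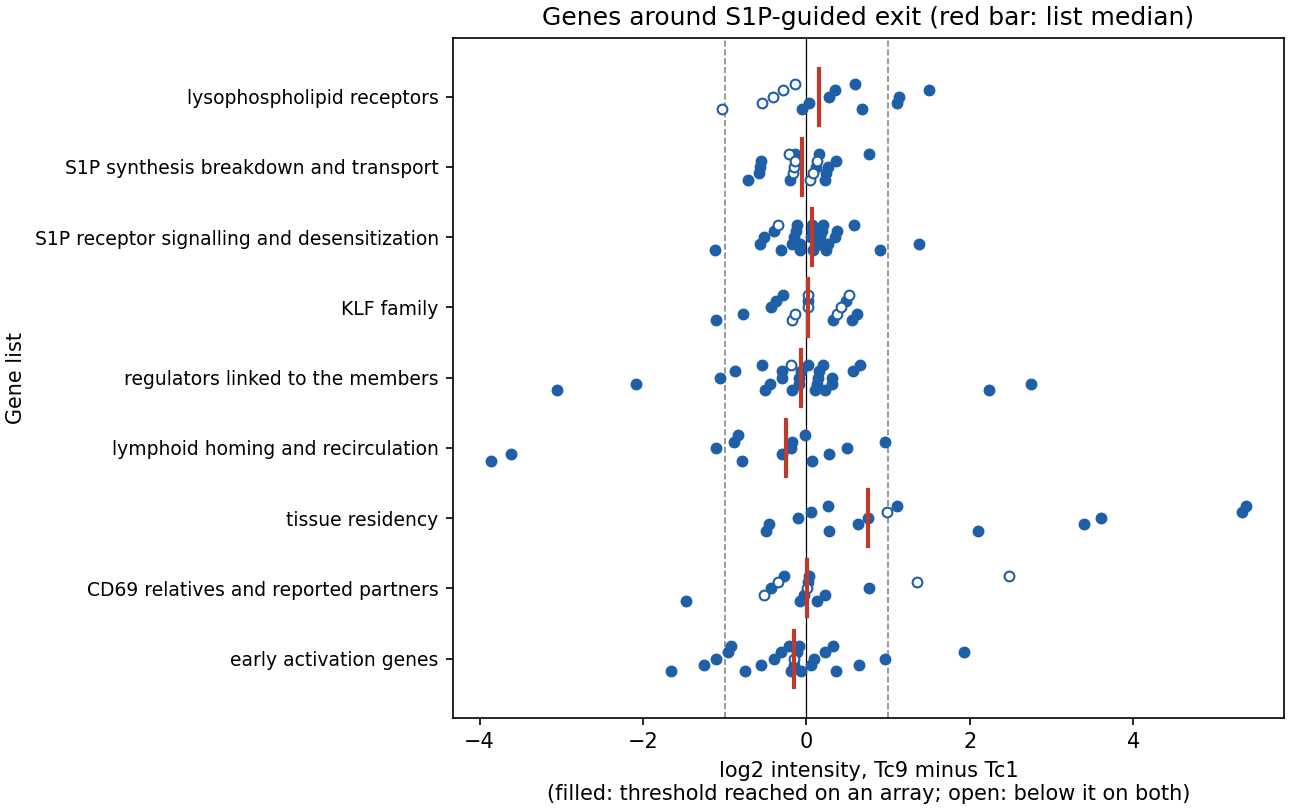
Each circle is the log2 difference, Tc9 minus Tc1, of 1 gene of the list named at the left, filled where the gene reached the detection threshold on an array and open where it was below on both; red bars are list medians and dashed lines mark 2-fold. Genes of S1P metabolism all lie within 2-fold, the tissue residency list has the highest median, 0.75, and the lymphoid homing list the lowest, -0.25.

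The genes linked to control of the 6 genes held differences in both directions. Of 27 measured, 26 were detectable, with 2 past 2-fold upward and 3 downward by measured values. Of the 3, Prdm1 was detectable only through the Tc1 array, where it was higher, and stays inside 2-fold with its Tc9 value set to the threshold. After median centring 2 passed 2-fold downward, since Eomes fell inside. Among all detectable genes 2.62% passed 2-fold upward and 2.79% downward. The median was -0.026 over the detectable genes, which turned to 0.042 after median centring, and -0.068 over all. Foxo1, the factor upstream of Klf2 and S1pr1, was 1.57-fold higher on the Tc9 array, at 9.84 and 10.50. The kinase genes of the ERK5 branch, Map2k5 and Mapk7, differed by 1.13-fold and 1.11-fold. Runx1, a transcription factor of T cell development and quiescence, was 6.73-fold higher, at 7.47 and 10.22, while Runx3, its relative in CD8 effector and resident cells, was 1.42-fold lower. Tgfbr1, the type I receptor for TGF-beta, which lowers S1pr1 and Klf2 in cells that become resident, was 4.71-fold higher, and TGF-beta was an ingredient of the Tc9 medium. Beside Tbx21 and Eomes, Prdm1, the Blimp-1 gene, was at least 1.79-fold lower, its Tc9 value being under the threshold.

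In the list of lymphoid homing genes, Ly6c2, Ly6c1 and Ccr7 were past 2-fold on the lower side. All 14 measured genes were detectable on both arrays, 10 of them with lower signals on the Tc9 array (9 under quantile normalization or median centring, where Selplg turned), and none was at least 2-fold higher. Among all detectable genes 43.7% had lower signals (47.3% and 35.7% under those scalings), and 2.79% passed 2-fold downward. The median of the list was -0.25. The 3 lower genes were Ly6c2 and Ly6c1, at 14.5-fold and 12.2-fold, whose probes may not separate them, and Ccr7, the receptor that brings T cells into lymph nodes, at 2.16-fold. Cxcr4, a chemokine receptor of retention and homing, was 1.94-fold higher, past 2-fold after median centring, and Il7r, another gene that FOXO1 supports, 1.23-fold lower.

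Among residency genes other than Cd69, 14 of 15 measured were detectable, but only 7 of these on both arrays. The median was 0.69 over the detectable and 0.75 over all measured genes. By measured values 6 passed 2-fold upward and none downward, where 2.62% of all detectable genes passed it upward. These 6 were Itgae, at least 20.1-fold, Ccr8, at least 31.1-fold, Ahr, at least 6.57-fold, Cxcr6, at least 3.91-fold, Cdh1, 4.29-fold, and Cd101, at least 1.60-fold. All but Cdh1 were below the threshold on the Tc1 array and counted as detectable only through the Tc9 array, where they were higher. The Tc1 value of Cdh1 was 6.61, just above the threshold. The lower Cd69 signal and the higher S1pr1 signal thus were found in the same pair of arrays as higher signals of Itgae and Cxcr6. This list was written with those results of the data known, so its direction is no independent evidence.

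Cd69 was also set beside its own relatives and reported partners. Of the 15 measured genes, 10 were detectable, of which 1 passed 2-fold downward and none upward. Among all detectable genes these shares were 2.79% and 2.62%. The median was -0.0094 over the detectable and 0.0010 over all measured genes, the former turning to 0.015 under quantile normalization. The lower gene was Clec2d, a C-type lectin of the same gene family, 2.77-fold, at 9.99 and 8.52. Clec2g, Clec2i and Clec2l, 3 more lectins of that family, differed by 1.17-fold or less. Slc7a5 and Slc3a2, the chains of an amino acid transporter reported to associate with CD69, were 1.35-fold and 1.21-fold lower. The other detectable genes of reported partners went the other way. Myl9 was at least 1.46-fold higher, its Tc1 value being under the threshold, and Myl12a, Myl12b and Lgals1 were higher by 1.10-fold or less.

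Early activation genes, with which Cd69 is usually grouped, differed in both directions. Of 24 measured, 23 were detectable, of which 15 had lower and 8 higher signals on the Tc9 array, where 43.7% of all detectable genes were lower. Of the 23, 1 passed 2-fold upward and 3 downward, where 2.62% and 2.79% of all detectable genes did so. The median was -0.15. Nr4a2, an orphan nuclear receptor, was 3.14-fold lower, Jun, an AP-1 subunit, 2.39-fold and Nr4a3 2.15-fold lower. Egr2, a zinc finger factor induced through the antigen receptor, was 3.80-fold higher, and Egr3 and Egr1 were 1.94-fold and 1.56-fold higher. On the lower side Nr4a1, Fosb, another AP-1 subunit, and Dusp1, a phosphatase of MAP kinases, were 1.94-fold, 1.90-fold and 1.68-fold lower. Egr3 passed 2-fold after median centring, and Nr4a1 passed it downward after quantile normalization. Il2ra, the IL-2 receptor alpha chain, was 1.28-fold higher and Tnfrsf9, the 4-1BB receptor, 1.47-fold lower.

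The genes with the log2 difference nearest to a given gene, among those detectable on both arrays, were listed as a measure of likeness, which rests on 1 difference between 2 arrays. For Cd69 they were Plxnc1, at -2.50, Gm12250, at -2.52, and Slfn8, at -2.46. For S1pr1 they were Tarbp2 and Ccdc69, both at 1.11, and St6galnac2, at 1.12.

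**Figure D4:**
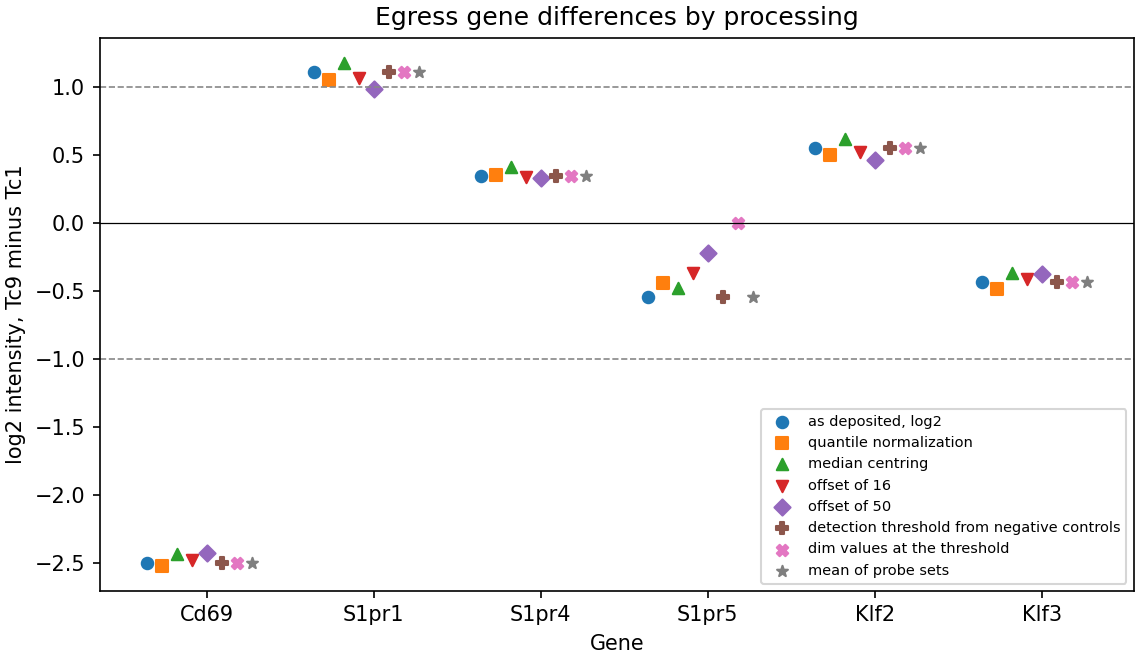
The plot gives the log2 difference, Tc9 minus Tc1, of the 6 genes under the deposited values and 7 alternative ways of processing, each with its own marker, and dashed lines mark 2-fold. Cd69 stays between -2.52 and -2.42, and S1pr1 between 0.99 and 1.18, so that an added 50 takes it just inside the line.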

How the data were processed

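Total RNA was isolated with Trizol, and sense targets of whole transcripts carried the biotin label, per the labels' protocols. It was hybridized to Affymetrix arrays, 1 for Tc1 and 1 for Tc9 cells. The deposited values are probe set intensities on a linear scale. How probes were summarized, corrected for background and normalized is not given in the sources used. Over 28846 probe sets the arrays had close medians (57.2 in Tc1, 53.1 in Tc9) and upper quartiles (330.5 in Tc1, 346.2 in Tc9), so the values were taken as normalized, and log2 was used without further scaling. Quantile normalization, the alternative, is in the closing section.

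Of the probe sets, 19572 had 1 gene symbol and 9274 had none. All 19572 Entrez numbers matched the GRCm38.p6 gene table. Where a gene had several probe sets (55 genes), the brighter was used. A value below the threshold of 6.43 was set to it for folds written "at least", and 89.9% and 91.7% of 5222 negative control probe sets lay below it. Of 585 negative controls that reached the threshold on an array, 16.2% differed by at least 2-fold, against 5.41% of detectable genes. The 95th percentile of the negative controls was 7.16. Folds with a value between 6.43 and 7.16 are uncertain in size, such as those of Tbx21 and Ly6c2 (Tc9 value) and of Cdh1 and Plpp2 (Tc1 value). Counts and medians use measured values.

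The named genes were the 6 egress genes, all members of the receptor and KLF lists, and of each other list the detectable genes past 2-fold or else the 2 largest differences. For Cd69 and S1pr1 the 3 nearest differences were added, and a few more were picked with their values in view. The 9 program lists and 10 marker lists, like the 6 genes, were chosen with earlier results of these data known. The only 2 arrays limit the precision. Calculations used Python 3.11.15, numpy 2.4.6 and pandas 2.3.3, and the count rule was tested on simulated data.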

Additional observations from a re-analysis of the deposited data

How the results depend on the processing

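Of the 6 genes, each kept its side of 2-fold and, where it was detectable, its sign under quantile normalization, median centring, an added 16, a threshold from negative controls, dim values at the threshold and the mean of probe sets. The exception among the 7 alternatives was an added 50, under which the S1pr1 difference was 0.99 on the log2 scale, a fold of 1.99. An added offset shrinks the folds of dim signals by its construction. Under it 164 detectable genes were at least 2-fold higher, against 266 with the deposited values. For the detectable genes, the threshold from negative controls, dim values at the threshold and the mean of probe sets could not change the difference. Each of these genes had 1 probe set and lay above either threshold on both arrays. Klf2 ranged from 0.46 to 0.62, S1pr4 from 0.33 to 0.41 and Klf3 from -0.48 to -0.36. S1pr5, below the threshold on both arrays, ranged from -0.54 to 0 with dim values at the threshold. Centring on the median of all genes shifted every difference by 0.068. With 1 array per group no replicate could be left out, and no paired analysis was possible because the groups hold 1 array each.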

Other observations

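Genes next to those of the lists were read after the values of Gpr183 and the Klf2 promoter had been seen. Gpr183, the receptor for oxysterols, was 2.83-fold higher on the Tc9 array, while the genes of the enzymes that make or break down its ligand, Ch25h, Cyp7b1, Hsd3b7 and Cyp27a1, lay below the threshold on both arrays. Of the MEF2 factor genes, Mef2a and Mef2d had log2 signals of 10.63 and 10.93 on the Tc1 array and 10.41 and 10.54 on the Tc9 array, differences of -0.23 and -0.39. Mef2c, which B cells also express, was 1.55-fold lower, and Mef2b at least 1.08-fold lower. None of these 4 genes was at least 2-fold lower. All 4 had lower signals on the Tc9 array, where 43.7% of all detectable genes were lower. Whether MEF2 factors bear on Klf2 in these cells was not tested.

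The prostaglandin E2 receptor genes were also read after the fact. Ptger4 was 1.36-fold higher on the Tc9 array, at 9.55 and 10.00, Ptger2 was 1.62-fold higher, at 6.61 and 7.31, and Ptger1 was 1.38-fold higher. Ptger3 lay below the threshold on both arrays.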
